A study of Mus musculus with 8 samples.

Results

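Immediate early and activation genes were followed in immune cells that had entered beta cell grafts. The 10 genes were Fos, Fosb, Jun, Junb, Egr1, Nr4a1, Dusp1, Zfp36, Ier2 and Nfkbia, taken by name from the 32285 genes of the count table, and all 10 were counted. NIT-1, an insulinoma beta cell line of the Non-obese diabetic (NOD) mouse, was injected under the skin of NOD.scid mice, which lack T and B cells of their own but keep macrophages, NK cells and other innate cells. WT and Rnls mutant cells, both of that 1 line, went into opposite flanks of a host, and all hosts then received splenocytes of diabetic NOD mice. Living CD45+ cells of the grafts were sorted at day 10 or day 17 after that transfer, following a warm enzymatic digest, and were sequenced with a droplet method that counts unique molecular identifiers (UMIs) near the ends of transcripts. The 4 groups were therefore WT day 10, Rnls mutant day 10, WT day 17 and Rnls mutant day 17, with 4 grafts each, every graft marked by its own hashtag antibody. The mutation was in the injected beta cells and not in the sequenced cells, so the level of Rnls in these cells does not check the genotype labels. Each group was 1 library, so that a group and its library cannot be told apart, and p-values measure the spread between grafts of 1 library. WT and mutant grafts of a day shared hosts, but the labels do not say which grafts belong together. The main tests, between days and between genotypes, therefore treated every graft as independent and took no account of shared hosts.

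Immediate early genes are switched on within minutes of a signal, without the need for new protein. Fos, Fosb, Jun and Junb encode subunits of the AP-1 transcription factor, which forms as dimers of a Fos and a Jun protein or of Jun proteins. Egr1 encodes a zinc finger factor induced through the MAP kinase pathway, and Nr4a1 an orphan nuclear receptor whose transcription in T cells follows signaling through the T cell receptor. Dusp1, Zfp36 and Nfkbia belong to the brakes of the same response: Dusp1 is a phosphatase that inactivates MAP kinases, Zfp36 (tristetraprolin) binds cytokine transcripts and speeds their decay, and Nfkbia (I kappa B alpha) holds NF-kB in the cytoplasm. Ier2 encodes a small nuclear protein induced with the others. Several of them are also known to be induced by the handling of tissue.

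The promoters of 5 members are shown because they share a short element. RefSeq promoters of GRCm38.p6, 250 bases before to 50 bases after each gene start, were at hand for 8 of the 10 genes. The core of the cyclic AMP response element, TGACG or its reverse complement CGTCA, was found in 5 of the 8, in Fos (2 times), Fosb (1 time), Junb (1 time), Nr4a1 (4 times) and Dusp1 (3 times). The same letters stood in 20.8% of all 32851 promoters of that length. In the sequences, written 5′ to 3′ along the strand of the gene, the capitals mark these cores.
Fos, chr12:85473640-85473939 on the plus strand: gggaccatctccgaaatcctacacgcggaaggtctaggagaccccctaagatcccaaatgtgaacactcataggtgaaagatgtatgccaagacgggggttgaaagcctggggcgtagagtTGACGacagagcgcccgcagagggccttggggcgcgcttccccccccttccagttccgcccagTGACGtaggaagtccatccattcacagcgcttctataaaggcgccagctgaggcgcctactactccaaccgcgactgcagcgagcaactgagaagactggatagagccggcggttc
Fosb, chr7:19309996-19310295 on the minus strand: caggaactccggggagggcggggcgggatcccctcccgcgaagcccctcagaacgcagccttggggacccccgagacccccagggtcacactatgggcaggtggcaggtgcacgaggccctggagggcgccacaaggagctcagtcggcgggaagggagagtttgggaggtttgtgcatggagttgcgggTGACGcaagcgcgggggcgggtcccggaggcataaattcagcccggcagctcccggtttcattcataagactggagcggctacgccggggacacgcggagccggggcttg
Junb, chr8:84978699-84978998 on the minus strand: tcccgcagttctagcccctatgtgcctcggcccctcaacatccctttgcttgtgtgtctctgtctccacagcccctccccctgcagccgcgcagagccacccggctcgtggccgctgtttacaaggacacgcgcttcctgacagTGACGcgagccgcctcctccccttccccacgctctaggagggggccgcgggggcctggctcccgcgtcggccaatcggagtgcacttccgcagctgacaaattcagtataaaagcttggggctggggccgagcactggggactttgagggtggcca
Nr4a1, chr15:101266596-101266895 on the plus strand: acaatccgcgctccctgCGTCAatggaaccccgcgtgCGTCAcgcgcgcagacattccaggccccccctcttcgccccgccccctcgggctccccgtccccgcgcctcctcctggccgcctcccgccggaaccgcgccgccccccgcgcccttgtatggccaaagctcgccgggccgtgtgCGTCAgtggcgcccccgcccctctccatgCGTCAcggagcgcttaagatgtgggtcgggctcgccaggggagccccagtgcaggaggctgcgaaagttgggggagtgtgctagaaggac
Dusp1, chr17:26508423-26508722 on the minus strand: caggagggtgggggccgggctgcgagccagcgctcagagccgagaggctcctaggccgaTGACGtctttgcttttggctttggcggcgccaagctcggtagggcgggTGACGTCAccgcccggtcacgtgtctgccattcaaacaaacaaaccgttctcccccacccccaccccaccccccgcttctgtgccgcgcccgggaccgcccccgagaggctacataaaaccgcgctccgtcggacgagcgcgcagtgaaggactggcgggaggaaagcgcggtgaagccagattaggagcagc
The cores nearest to the start began at -66 (Fos), -60 (Fosb), -106 (Junb), -40 (Nr4a1) and -140 (Dusp1) relative to the gene start. In Nr4a1 all 4 cores read CGTCA. Of the 8 promoters, only that of Dusp1 held the full element, TGACGTCA, which overlaps 2 of its 3 cores and stood in 1.79% of all promoters. On either strand, the AP-1 site TGANTCA was in 0 of the 8 (7.81% of all promoters) and the EGR site GCGNGGGCG in 3, Fosb, Nr4a1 and Zfp36 (5.55%). The CArG box, the serum response element core, was in Zfp36 (1.63%), and the NF-kB site was in Fos, Fosb, Nr4a1 and Nfkbia (4.51%). These matches describe letters in a window and were not linked to the levels below. In GRCm38, 9 of the 10 genes lie at chr12:85473890-85477273 (Fos), chr12:55489410-55492647 (Nfkbia), chr7:19302696-19310051 (Fosb), chr7:28376784-28380253 (Zfp36), chr8:84974484-84978718 (Junb), chr8:84661331-84662852 (Ier2), chr4:95049034-95052222 (Jun), chr15:101254269-101274795 (Nr4a1) and chr17:26505590-26562128 (Dusp1), all annotated as protein coding. The RefSeq starts used for Nr4a1, Dusp1 and Zfp36 lie within these annotated spans, away from their ends.

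The table held 22441 cells in 29 clusters and 12 annotated cell types. WT day 10 gave 7617 cells (median 3382 UMIs per cell), Rnls mutant day 10 6652 (3453.5), WT day 17 2690 (5902) and Rnls mutant day 17 5482 (3083). The library WT day 17 thus stood apart by its few and deep cells, with 350 to 1112 cells per graft. Over all 16 grafts, sums ran from 1742746 to 9729233 UMIs. Between libraries, 42 of 22399 barcodes were shared. UMIs were summed per graft and cell type, and each level is given in CPM, the UMIs of a gene scaled to 1000000 in that sum, with n counting grafts. CD4 T cells, macrophages and NK cells carried markers of their type. In CD4 T cells Cd3d was at 960.4 ± 121 and Cd4 at 287 ± 67.0 CPM (SD, n = 16). In macrophages C1qa was at 2163 ± 902 and Cd3d at 2.37 ± 2.04, and in NK cells Ncr1 was at 511 ± 215. Summed NK cell markers (Ncr1, Klrb1c, Klrk1 and Eomes) did not separate NK cells (1562 ± 359) from ILC-1 (1454 ± 333, n = 8). Summed ILC1 markers (Ncr1, Klrb1c, Cxcr6, Cd200r1 and Il7r) were at 1638 ± 661 in ILC-1 and 722 ± 256 in NK cells. Both lists hold Ncr1 and Klrb1c. Cells called Stem-Progenitor held summed T cell markers at 3347 ± 948 and cycling cell markers (Mki67, Top2a, Birc5 and Cdk1) at 2117 ± 650 (n = 12). Although the labels name the cells as beta cells, 5 beta cell markers (Ins1, Ins2, Iapp, Chga and Chgb) gave 38 UMIs in all cells, 30 of them in the cells called Stem-Progenitor. B cells (35 cells) and mast cells (13 cells) reached 10 cells in no graft.

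The 10 genes were spread unevenly over the immune cells, and no single cell type was highest for all. By mean level, with the few mast and B cells left aside, granulocytes were first for Fos, Junb, Egr1, Dusp1, Zfp36 and Nfkbia. Macrophages were first for Jun and Fosb, and NK cells for Nr4a1 and Ier2. Several of these leads lay within the spread between grafts. Fos was at 1085 ± 415 CPM in granulocytes (SD, n = 12 grafts) and at 1043 ± 456 in macrophages (n = 16), and granulocytes were above macrophages in 6 of 12 shared grafts, so that these 2 types did not differ beyond their spread. Next came monocytes at 395 ± 144 (n = 15), below macrophages in 14 of 15 grafts. CD8 T cells had the lowest Fos level, 53.3 ± 52.6 (n = 16), beside Treg at 67.9 ± 45.2 (n = 14). Jun, the partner of Fos, was at 778 ± 429 in macrophages, above granulocytes (340.0 ± 256) in 11 of 12 grafts. Fosb was at 647 ± 315 in macrophages and 438 ± 419 in ILC-1 (n = 8), which did not differ beyond their spread. Junb was at 3415 ± 978 in granulocytes and 1810.2 ± 1091 in ILC-1, with granulocytes above in 5 of 5 shared grafts. The order of types is a description, since the authors defined the types by clusters of the same cells.

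**Figure D1:**
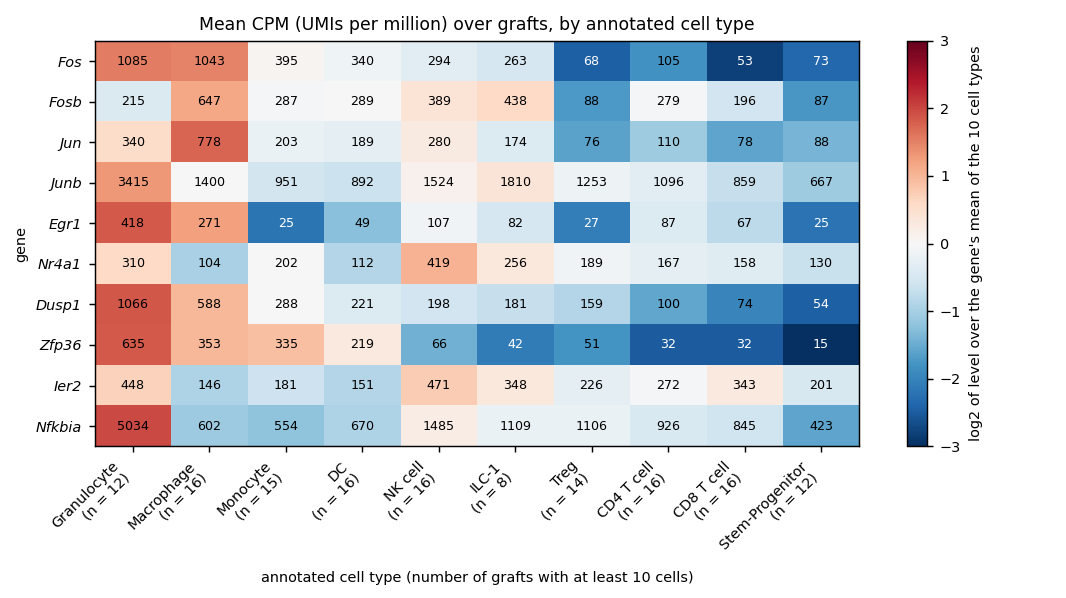
Mean level of each gene (rows) in each annotated cell type (columns), in CPM averaged over the grafts with at least 10 cells of that type. Colors give the log2 of a level over the gene's own mean of the 10 types, so colors compare types within a gene; granulocytes are red for Dusp1 (1066) and Nfkbia (5034), and macrophages are blue for Nr4a1 (104) and Ier2 (146).

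Egr1 fell off sharply after the leading types. It was at 418 ± 238 CPM in granulocytes and 271 ± 141 in macrophages, which were not distinct (granulocytes above in 6 of 12 grafts), yet at 25.5 ± 19.1 in monocytes (n = 15), the myeloid type beside them. Nr4a1 had its highest mean in NK cells, 419 ± 256, above granulocytes (310 ± 172) in 8 of 12 grafts, and its lowest in macrophages, 104 ± 34.7, and NK cells were above macrophages in 16 of 16 grafts. Ier2 was at 471 ± 102 in NK cells and 448 ± 98.0 in granulocytes, which were not distinct (NK cells above in 6 of 12 grafts). At its lower end, dendritic cells (151 ± 43.3) and macrophages (146 ± 38.5) were not distinct either (dendritic cells above in 8 of 16 grafts). Among the brakes, Dusp1 was at 1066 ± 441 in granulocytes and 588 ± 175 in macrophages, higher in granulocytes in 12 of 12 grafts. Zfp36 was at 353 ± 92.4 in macrophages and 335 ± 188 in monocytes, which were not distinct (8 of 15 grafts), while CD4 T cells were at 31.7 ± 18.9. Nfkbia in granulocytes, 5034 ± 1411, lay above that in NK cells, 1485 ± 452, in 12 of 12 grafts. Granulocytes were few, 369 cells with a median of 1319 UMIs.

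Finer groups of cells showed a wider range, with Jun at 6085 and Egr1 at 4724 CPM in the pooled mast cells. When the 29 clusters were ranked by the mean of the members' standardized log2 levels, the highest were the mast cells (cluster 28, 13 cells), the granulocytes (cluster 18, 369 cells) and a small CD8 T cell cluster led by Ccl4, Tox and Cd69 (cluster 26, 44 cells). The lowest were cluster 24 (177 cells, led by the granzyme genes Gzmd and Gzme), the B cells (cluster 27, 35 cells) and a CD8 T cell cluster led by Gzma (cluster 16, 387 cells). CD8 T cells therefore held clusters at both ends. Clusters were made from these same cells, so the ranking carries no test, and 13 mast cells give little depth.

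The question for time was how the genes differed between early and late infiltration. In CD4 T cells all 10 members were higher at day 17 than at day 10. Both genotypes entered this comparison with equal weight, and a gene was called at an adjusted p below 0.05 in the quasi-likelihood test of edgeR, after Benjamini-Hochberg correction across every gene tested. The background was high, since 18.8% of all genes tested in CD4 T cells were called higher and 17.7% lower. The median log2 fold change of the members was 1.35, beside 0.014 over all genes.

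Among the AP-1 genes, Junb gave the clearest separation in CD4 T cells. In CPM, its 4 WT day 10 grafts were at 691, 546, 515 and 612, and those of Rnls mutant day 10 at 791, 628, 684 and 653. At day 17 the WT grafts were at 1924, 1736, 1919 and 1642 and the mutant grafts at 1037, 1571, 1313 and 1274. Every day 17 graft thus lay above every day 10 graft, and the log2 fold change was 1.14 ± 0.08 (SE, adjusted p = 7.9e-10). Fos in CD4 T cells was at 23.8, 58.6, 21.2 and 43.0 in WT and 56.6, 44.4, 58.9 and 67.3 in mutant grafts at day 10. Day 17 grafts were at 72.8, 140.2, 374 and 77.5 in WT and 143, 126, 242 and 135 in the mutant group. The days did not overlap, but graft 3 was far above the others of its group in both genotypes at day 17, and the log2 fold change was 1.67 ± 0.28 (adjusted p = 6.4e-05). Fosb rose by 1.60 ± 0.22 (adjusted p = 8.1e-06) with overlapping days. Jun, at 66.2, 64.5, 46.7 and 65.8 in WT and 124, 111, 113 and 89.1 in mutant grafts at day 10, and at 107, 94.9, 254 and 145 and 110.3, 141, 110.1 and 121 at day 17, overlapped as well and rose less, by 0.60 ± 0.15 (adjusted p = 0.0034).

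Nr4a1, the gene that follows T cell receptor signals, was at 88.7, 68.6, 63.7 and 80.7 CPM in WT and at 131, 95.3, 97.7 and 93.9 in mutant CD4 T cells at day 10. In the day 17 groups it was at 251, 181, 354 and 229 in WT and at 253, 236, 212 and 228 in mutant grafts. All day 17 grafts were above all day 10 grafts, a log2 fold change of 1.37 ± 0.11 (adjusted p = 5.2e-09, edgeR). Egr1 rose by 1.58 ± 0.15 (adjusted p = 8.3e-08), also without overlap. Of the brakes, Dusp1 was at 56.9, 44.4, 38.9 and 50.9 in WT and 63.7, 45.6, 57.9 and 45.5 in mutant grafts at day 10, then at 150.3, 268, 150.1 and 138 and 97.4, 145, 172 and 69.7 at day 17. Its lowest day 17 graft was just above its highest day 10 graft, and the log2 fold change was 1.42 ± 0.15 (adjusted p = 3.3e-07). Zfp36 rose by 1.33 ± 0.19 (adjusted p = 8.7e-06). Ier2 (0.43 ± 0.09, adjusted p = 0.001) and Nfkbia (0.41 ± 0.10, adjusted p = 0.0022) rose least. Expressed as the ratio of mean levels, day 17 over day 10, the genes ranged from 1.45 for Nfkbia to 3.51 for Fos. Within WT grafts alone 10 members were higher (10.6% of all genes), and within mutant grafts alone 7 (12.1%). The WT day 17 library was the deeper of the day 17 libraries, and the part of depth in the day change was not tested.

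**Figure D2:**
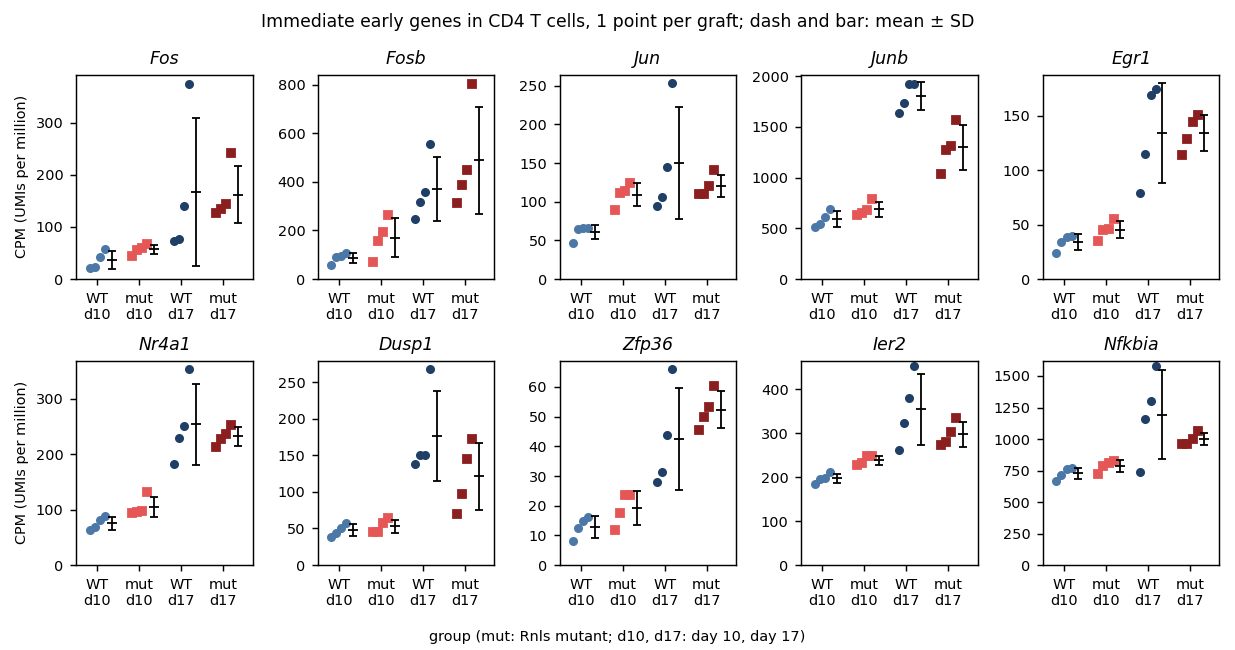
Levels in CD4 T cells in CPM, 1 panel per gene, with 1 point per graft in the 4 groups and a dash with bar for mean ± SD. For Junb, the day 17 grafts lie between 1037 and 1924 and the day 10 grafts between 515 and 791, whereas for Jun the days overlap.

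CD8 T cells changed in the same direction. Of the 10 members, 8 were called higher at day 17, beside 10.6% of all genes. Junb in CD8 T cells was at 379.7, 553, 498 and 527 CPM in WT and 498, 581, 604 and 616 in mutant grafts at day 10. At day 17 it was at 1812, 990.5, 1766 and 1228 in WT and 906, 1038, 888 and 864 in mutant grafts, again with no overlap of days (log2 fold change 1.01 ± 0.11, edgeR adjusted p = 6.8e-08). Zfp36, which restrains cytokine transcripts, had the largest log2 estimate of the 10. It was at 17.0, 14.1, 9.03 and 14.4 in WT and 9.32, 14.1, 15.0 and 10.9 in mutant grafts at day 10, and at 40.3, 40.0, 114 and 39.9 and 51.8, 39.1, 35.5 and 44.3 at day 17, so the days did not overlap (1.72 ± 0.24, adjusted p = 5e-06). In macrophages Zfp36 was at 353 ± 92.4 CPM (SD, n = 16), and the share of macrophage markers in CD8 T cells is given below. Fos (1.54), Fosb (1.46), Egr1 (1.23), Nr4a1 (1.17), Dusp1 (1.38) and Ier2 (0.42, lost without WT day 17 graft 1, 0.31) also passed, all on the log2 scale. Jun had a log2 fold change of 0.08 ± 0.26 (adjusted p = 0.86) and Nfkbia one of 0.39 ± 0.17 (adjusted p = 0.11), and neither passed. Nfkbia was called higher without WT day 17 graft 2 (0.52), without TMM scaling (0.51) and without the filter on low counts (0.26). In Treg, 8 members could be tested, all but Egr1 and Zfp36, over 14 grafts, and 4 were higher: Fosb (1.89 ± 0.40), Junb (0.91 ± 0.14), Nr4a1 (1.83 ± 0.26) and Dusp1 (1.79 ± 0.27), beside 7.89% of all genes.

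NK cells, innate killer cells, had 7 of 10 members higher at day 17, beside 6.34% of all genes. Nr4a1 in NK cells was at 153, 256, 118 and 165 CPM in WT and 233, 400.1, 226 and 188 in mutant grafts at day 10. It was at 719.6, 221, 656 and 579 in WT and 934, 606, 684 and 567 in mutant grafts at day 17. All day 17 grafts but WT graft 2 lay above all those of day 10, and the log2 fold change was 1.49 ± 0.22 (edgeR adjusted p = 3.4e-05). Fos (1.74), Fosb (1.47), Junb (0.64), Egr1 (1.54), Dusp1 (0.99) and Zfp36 (0.94) passed as well. The call of Zfp36 was lost without WT day 17 graft 2 (0.84) or mutant day 17 graft 3 (0.86). Ier2 (0.35 ± 0.12, adjusted p = 0.057), Jun (0.47 ± 0.22, adjusted p = 0.15) and Nfkbia (0.17 ± 0.19, adjusted p = 0.62) did not pass in edgeR's test. Ier2 was called higher with DESeq2 (0.36), without TMM scaling (0.43), with the hashtag number as a block (0.36) and without WT day 17 graft 3 (0.37).

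Dendritic cells, the antigen-presenting cells that prime T cells, had 8 members higher, beside 13.4% of all genes. Nr4a1 was at 18.6, 63.6, 23.1 and 50.3 CPM in WT and 70.3, 42.6, 52.8 and 53.4 in mutant dendritic cells at day 10. At day 17 it was at 121, 217, 159 and 114 in WT and 196, 181, 172 and 252 in mutant grafts. The days did not overlap, and the log2 fold change was 1.89 ± 0.22 (edgeR adjusted p = 6.6e-06), a larger estimate than in CD4 T cells. Fos (1.75), Fosb (1.78), Junb (0.67), Egr1 (1.21), Dusp1 (1.17), Zfp36 (1.10) and Ier2 (0.60) were the others that passed. Jun (-0.44 ± 0.24, adjusted p = 0.19) and Nfkbia (-0.47 ± 0.20, adjusted p = 0.08) had negative estimates that did not pass. Nfkbia was called lower when mutant day 10 graft 3, mutant day 17 graft 3 or WT day 17 graft 2 was left out. The mix of dendritic cells moved with the day. In WT and mutant grafts, cluster 19 held 112 and 60 cells at day 10 and 70 and 99 at day 17. Cluster 17 held 218 and 127, then 19 and 22, and cluster 21 held 101 and 109, then 11 and 19. Pooled over cells of clusters 19, 17 and 21, Nr4a1 was at 128, 54.4 and 45.7 CPM, Nfkbia at 288, 769 and 1670, and Junb at 762, 857 and 994. The part of this mix was not tested.

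Monocytes were mixed, with 4 members higher (6.31% of all genes) and 1 lower (8.11%) over 15 grafts. Nr4a1 rose by 1.78 ± 0.29 (adjusted p = 0.00046), Zfp36 by 1.08 ± 0.17 (adjusted p = 0.00038), Dusp1 by 0.82 ± 0.17 (adjusted p = 0.0029) and Fosb by 0.54 ± 0.17 (adjusted p = 0.035) in edgeR's test. Jun fell, with a log2 fold change of -0.68 ± 0.20 (adjusted p = 0.024). The call of Jun was lost without mutant day 17 graft 1 (-0.60) or graft 3 (-0.64). That of Fosb was lost without any of 9 grafts (mutant day 10 grafts 2 and 4, mutant day 17 grafts 1, 2 and 4, WT day 10 grafts 2 and 3, WT day 17 grafts 1 and 4). The Fosb call was also lost without the filter on low counts (0.43) and with at least 20 cells per graft (0.43). The mix of monocytes moved with the day. Cluster 1 held 986 and 704 cells in WT and mutant day 10 and 55 and 54 in day 17. Cluster 14 held 191 and 214, then 77 and 64. Pooled over cells, cluster 14 was above cluster 1 in Nr4a1 (446 and 55.6 CPM), Zfp36 (360 and 201) and also Jun (470 and 170). The part of this mix in the day change was not tested.

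Macrophages differed from the lymphocytes. Only Fosb was called higher at day 17, where 25.6% of all genes were, and Fos and Jun were called lower, where 25.3% of all genes were. Fos in macrophages was at 1257, 873, 1188 and 788 CPM in WT and 1912, 2264, 1159 and 751 in mutant grafts at day 10. At day 17 it was at 958, 968, 585 and 1056 in WT and 716, 811, 671 and 734 in mutant grafts. The days overlapped, since mutant day 10 graft 4 and WT day 10 graft 4 were as low as day 17 grafts, and the log2 fold change was -0.78 ± 0.19 (edgeR adjusted p = 0.0027). Jun was at 962, 658, 1155 and 674 in WT and 966, 2069, 648 and 501 in mutant grafts at day 10, and at 745, 868, 299 and 619 and 292, 484, 449 and 1050.4 at day 17, with wide overlap. Its log2 fold change was -0.81 ± 0.31 (adjusted p = 0.035). The call was lost without mutant day 10 graft 2 (-0.53), the highest graft, and without any of 6 others (mutant day 17 grafts 1, 2 and 3, WT day 10 grafts 1 and 3, WT day 17 graft 3), and without TMM scaling.

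Fosb went the other way in macrophages. It was at 481, 327, 444 and 326 CPM in WT and 467, 487, 429 and 433 in mutant grafts at day 10, and at 1058, 674, 502 and 979 and 628, 896, 756 and 1473 at day 17. The days did not overlap (log2 fold change 0.89 ± 0.18, adjusted p = 0.00056). The others did not pass in macrophages: Nr4a1 was at -0.43 ± 0.20 (adjusted p = 0.077), Junb at -0.20 ± 0.09 (adjusted p = 0.073), Nfkbia at -0.29 ± 0.12 (adjusted p = 0.0544), and Ier2, Dusp1, Zfp36 and Egr1 were at -0.34, 0.28, 0.22 and -0.05, where the sign of Egr1 turned without TMM scaling (0.088). The number called lower depended on the grafts: without mutant day 10 graft 4 or mutant day 17 graft 4 it was 5, without WT day 17 graft 2 or graft 4 it was 4, and without any of mutant day 10 graft 2, mutant day 17 grafts 1, 2 and 3, WT day 10 graft 1 and WT day 17 graft 3 it was 1. The number called higher was 3 without mutant day 10 graft 2.

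**Figure D3:**
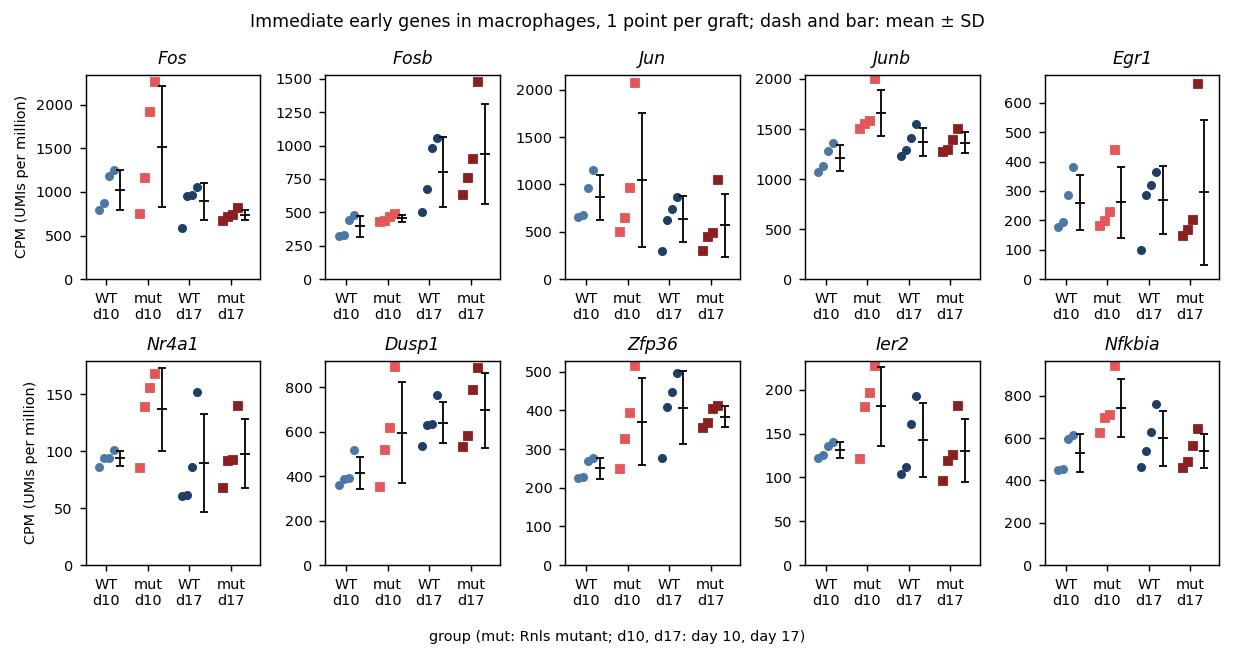
Levels in macrophages in CPM, 1 panel per gene, with 1 point per graft in the 4 groups and a dash with bar for mean ± SD. Fosb at day 17 (502 to 1473) lies above day 10 (326 to 487), while Fos and Jun overlap between days and spread widely in Rnls mutant day 10 (Jun from 501 to 2069).

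Summed over all CD45+ cells, 7 members were higher at day 17, beside 30.1% of all genes. In such sums, a change in the mix of cells and a change of the RNA within a cell cannot be told apart. Fos, at 0.54 ± 0.22 (adjusted p = 0.0497), kept its call when the graft left out was mutant day 10 graft 1 or 2, WT day 10 graft 1 or WT day 17 graft 1, and lost it without any of the other 12. Ier2 (0.01), whose sign turned with DESeq2's size factors (-0.0046), Jun (0.24) and Nfkbia (0.06) did not pass.

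**Figure D4:**
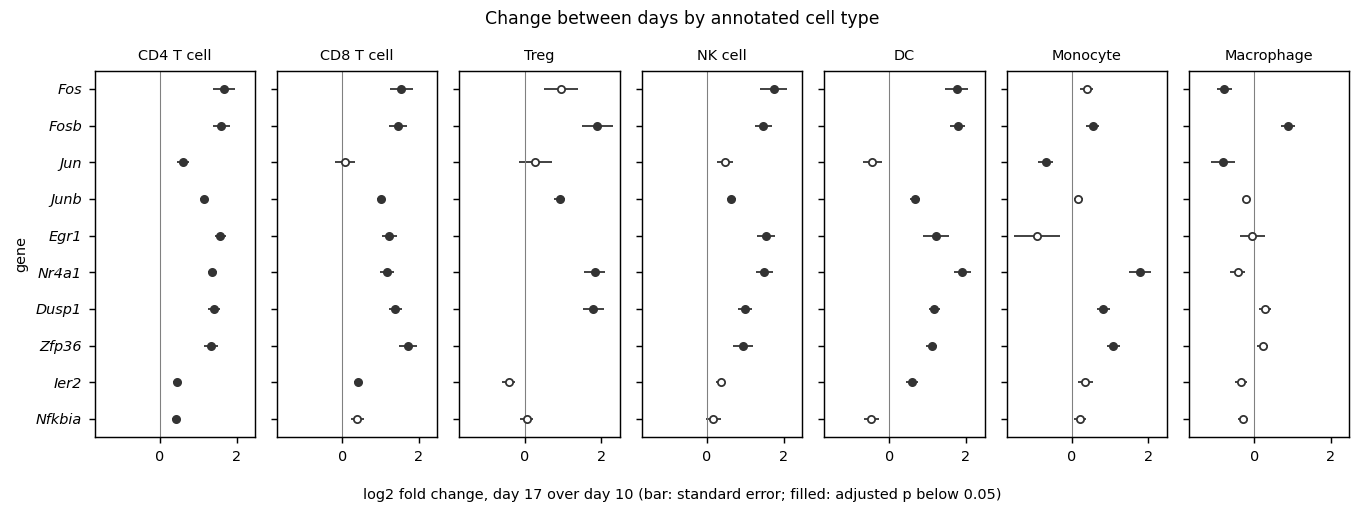
Log2 fold change of each gene, day 17 over day 10, in 7 annotated cell types, with bars for the standard error and filled points for an edgeR adjusted p below 0.05. In CD4 T cells 10 points are filled and positive, in macrophages Fosb is filled and positive and Fos and Jun are filled and negative; without TMM scaling the call of Jun in macrophages is lost and the sign of Egr1 there turns.

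Whether the day change differed between cell types was tested directly. For each graft, the log2 level in macrophages was subtracted from that in another type, and the differences were compared between days with limma, adjusted over all genes by Benjamini-Hochberg. This comparison was added after the values were seen, and the types are given side by side because they share the same macrophage sums. CD4 T cells had a more positive day change than macrophages for 9 of 10 members, beside 6.88% of all genes. The difference in log2 change was 2.24 ± 0.47 for Fos (adjusted p = 0.0049), 1.75 ± 0.23 for Nr4a1 (adjusted p = 0.00016), 1.75 ± 0.39 for Egr1 (adjusted p = 0.0072) and 1.31 ± 0.12 for Junb (adjusted p = 1.3e-05). For Fosb it was 0.81 ± 0.28 (adjusted p = 0.068), the member that did not pass. In CD8 T cells 5 members were more positive (Zfp36, Junb, Fos, Nr4a1 and Egr1; 7.09% of all genes), and in NK cells 6 (Jun, Ier2, Junb, Fos, Nr4a1 and Egr1; 10.6%). In dendritic cells there were 7 (Fosb, Zfp36, Ier2, Junb, Fos, Nr4a1 and Dusp1; 6.54%). In monocytes there was 1, Nr4a1, with a difference of 1.93 ± 0.41 (adjusted p = 0.026; 1.04%).

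Macrophage transcripts in the sums of T cells and NK cells were highest in Rnls mutant day 17. The summed level of 6 macrophage markers (C1qa, C1qb, C1qc, Adgre1, Csf1r and Cd68) in CD4 T cells was 44.9 CPM in WT day 10 (grafts from 39.7 to 47.9), 26.2 in mutant day 10 (17.7 to 32.4), 69.5 in WT day 17 (53.6 to 84.3) and 273 in mutant day 17 (254 to 290.2). These levels were 0.927%, 0.663%, 1.07% and 3.80% of the level in macrophages. Those shares of the macrophage level of Fos would give 9.51, 10.1, 9.56 and 27.8 CPM, where the mean levels of Fos in CD4 T cells were 36.7, 56.8, 166 and 162. For Zfp36 the shares would give 2.32, 2.46, 4.37 and 14.6, beside measured means of 12.9, 19.1, 42.3 and 52.3. For these 2 genes the amounts were smaller than the day difference in either genotype. For Zfp36 in mutant grafts, though, the amount rose from 2.46 to 14.6 beside a measured rise from 19.1 to 52.3. For Jun they would give 7.99, 6.94, 6.79 and 21.6, beside means of 60.8, 109, 150.1 and 121, so that in mutant grafts the amount at day 17 was larger than the day difference of Jun. In CD8 T cells the marker share was 1.44%, 1.00%, 1.45% and 4.44%, and in NK cells 1.56%, 0.943%, 1.32% and 3.1%, in the same order of groups. Amounts were worked out only for Fos, Zfp36 and Jun in CD4 T cells, and transcripts of cells other than macrophages were not estimated. The part of these transcripts in the day change and in the genotype difference at day 17 was not tested further.

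The makeup of the CD4 T cells also moved with the day. Cluster 0, led by Ccl1, Ifng, Il2 and Csf2, held 966 and 1047 cells in WT and mutant day 10 and 39 and 58 in day 17. Cluster 8, led by Tnfsf8, St6galnac3 and Lef1, held 71 and 100 cells in day 10 and 356 and 633 in day 17. The day comparison was therefore repeated within each cluster that had enough cells in all groups, a comparison added after the values were seen. Within cluster 8 (15 grafts), Junb was higher (0.73 ± 0.16, edgeR adjusted p = 0.0077; 0.951% of all genes were called higher) and Jun lower (-1.30 ± 0.33, adjusted p = 0.028; 1.63% called lower). Nr4a1 (0.47 ± 0.26, adjusted p = 0.36) and Fos (-1.47 ± 0.53, adjusted p = 0.15) did not pass, and the median of the members was 0.07. Fos in cluster 8 was at 697 ± 1058 CPM in WT day 10 (n = 3), with grafts from 10.1 to 1915, and at 614 ± 259, 200.2 ± 209 and 205 ± 92.9 in mutant day 10, WT day 17 and mutant day 17. Of the 10 rises in all CD4 T cells, that of Junb was called within cluster 8.

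Cluster 0 had too few day 17 grafts to be fitted. Its Nr4a1 level was 76.4 ± 7.39 in WT day 10 and 116 ± 16.2 in mutant day 10 (n = 4 each), and 343 and 249 in WT and mutant day 17 (n = 2 each), in CPM. Its Junb level was 644 ± 92.0 in WT day 10 and 744 ± 51.5 in mutant day 10 (n = 4 each), and 2473 and 1291 in WT and mutant day 17 (n = 2 each). Both genes were higher at day 17 in these few grafts, in cells of 1 cluster. In CD8 T cells, cluster 3 (1780 cells, 16 grafts) had 8 members higher at day 17, beside 8.07% of all genes, with Junb at 1.07 ± 0.14 (adjusted p = 2.1e-06) and Nr4a1 at 1.33 ± 0.22 (adjusted p = 7.3e-05) on the log2 scale, close to the whole type. NK cells and Treg each corresponded to 1 cluster.

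Macrophage clusters moved with the day as well. Cluster 13, led by Hspb1, Jun and Bag3, held 328 and 181 cells in WT and mutant day 10 and 20 and 22 in day 17. Jun was at 2254 ± 204 CPM there in WT day 10 and Fos at 1937 ± 178. Within cluster 5 (1697 cells, 16 grafts), 3 members were higher at day 17, beside 9.13% of all genes: Fosb (1.52 ± 0.23, adjusted p = 5.5e-05), Dusp1 (0.94 ± 0.20, adjusted p = 0.0016) and Zfp36 (0.74 ± 0.20, adjusted p = 0.0098). Fos was at 0.52 ± 0.27 (adjusted p = 0.19) and Jun at -0.05 ± 0.32 (adjusted p = 0.94), so the lower level of both in all macrophages was not found within this cluster. Clusters were defined on the expression of the same cells.

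**Figure D5:**
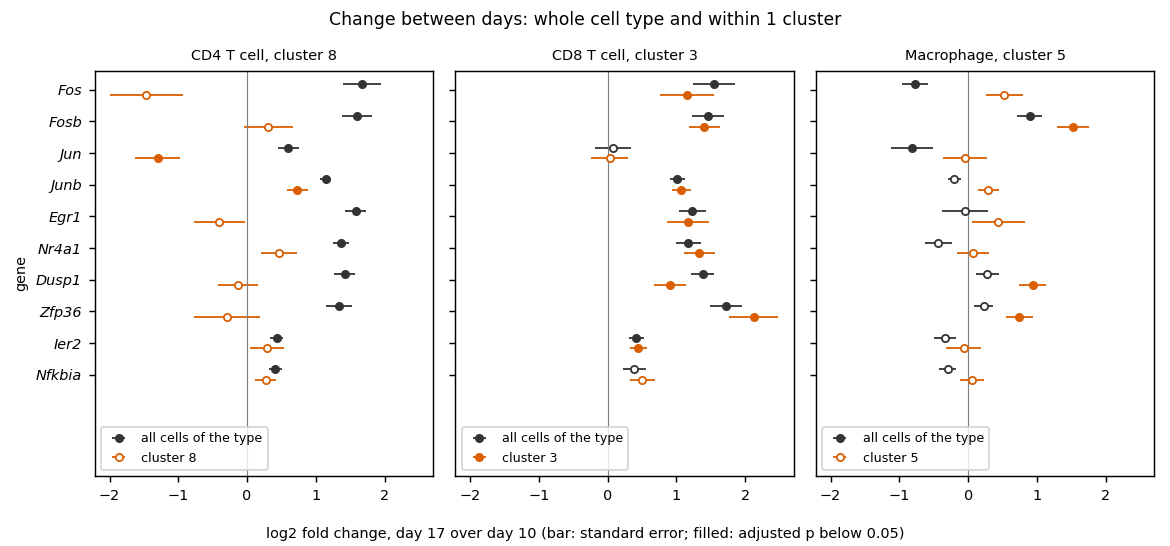
Log2 fold change, day 17 over day 10, over all cells of a type (dark) and within 1 of its clusters (orange), with bars for the standard error and filled points for an edgeR adjusted p below 0.05. CD8 T cell cluster 3 follows its type, CD4 T cell cluster 8 has Fos at -1.47 against 1.67 in all CD4 T cells, and macrophage cluster 5 has Fos at 0.52 against -0.78.

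Other genes of the early response were read from a list of 40 related genes. In CD4 T cells 23 of the 38 tested were higher at day 17 and 2 lower, beside 18.8% and 17.7% of all genes, and their median log2 fold change was 0.63. The 5 with the smallest p were Zfp36l1 (1.47 ± 0.10), a relative of Zfp36, Tnfaip3 (1.39 ± 0.10), which dampens NF-kB signaling, the early activation marker Cd69 (1.33 ± 0.10), the Nr4a1 relative Nr4a3 (1.38 ± 0.11) and Ppp1r15a (1.49 ± 0.12), a phosphatase subunit of the stress response. The lower genes were Ier3 (-1.24 ± 0.27) and the phosphatase gene Dusp2 (-0.64 ± 0.15). In macrophages 5 of 40 were higher and 16 lower, beside 25.6% and 25.3% of all genes, with a median of -0.34. The higher ones were Nfkbiz (1.24 ± 0.29), Zfp36l1 (0.57 ± 0.14), Klf4 (0.44 ± 0.14), Fosl2 (0.31 ± 0.11) and Egr3 (1.09 ± 0.39). The call of Fosl2 was lost without any of mutant day 10 graft 2, mutant day 17 graft 1, WT day 10 graft 4 and WT day 17 grafts 3 and 4. That of Egr3 was lost without any of mutant day 10 grafts 1 and 2, WT day 10 graft 2 and WT day 17 grafts 1 and 4. Among the lower ones were Cd69 (-2.17 ± 0.19), Dusp4 (-3.34 ± 0.55), Dusp5 (-1.34 ± 0.14), Maff (-0.91 ± 0.13) and Btg1 (-0.88 ± 0.09). Cd69 thus moved in opposite directions in the 2 cell types. The numbers higher and lower were 16 and 4 in CD8 T cells, 10 and 1 in Treg, 9 and 2 in NK cells, 12 and 4 in dendritic cells and 9 and 3 in monocytes. The shares of all genes called lower in the first 4 of these were 10.8%, 7.81%, 6.56% and 13.6%, beside the shares called higher given above. The filter kept 2331 genes in Treg and 3263 in NK cells, beside 7858 in CD4 T cells, so these counts need not be out of 40.

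Heat shock genes, which encode chaperones that answer heat and handling, moved with the day in every cell type fitted. In CD4 T cells 10 of the 11 tested were lower at day 17 and in macrophages 12 of 12 in edgeR's test, beside 17.7% and 25.3% of all genes. Every tested gene of the list had a negative estimate in all 8 populations, with list medians from -1.68 in Treg to -2.95 in monocytes. Their summed level in CD4 T cells was 15063 ± 2929.6 CPM in WT day 10 (SD, n = 4), 18781 ± 3279 in mutant day 10, 4429 ± 830.0 in WT day 17 and 4167 ± 626 in mutant day 17. In macrophages it was 17009 ± 1307, 19047 ± 5947, 4392 ± 972 and 4388 ± 1289 in the same order. The chaperone genes therefore moved opposite to the members in CD4 T cells and in the same direction as Fos and Jun in macrophages. Heat shock genes and members can both respond to the digest of a graft, and the part of handling in the day change was not tested.

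The question for genotype was how immune cells of Rnls mutant grafts differed from those of WT grafts. Over the 8 populations fitted (7 cell types and all CD45+ cells), 78 tests of members were made per comparison, and edgeR called 0 at day 10 (0.103% of all 55514 gene tests were called), 0 at day 17 (0.122%), 0 over both days (0.0018%) and 0 for the change of the genotype difference between days (0.277%). At an unadjusted p below 0.05 there were 15, 7, 12 and 17 of 78, beside 3622, 4002, 3204 and 4672 of the 55514. DESeq2 called 1, 2, 0 and 1 of the members, and its share over all genes is not given here. At day 10, 66 of the 78 estimates were higher in mutant grafts, among them 10 of 10 in CD4 T cells with a median log2 difference of 0.41. The number was 37 of 78 at day 17. Populations and genes overlap and share libraries, so these counts of signs carry no test.

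The smallest adjusted p at day 10 was that of Jun in CD4 T cells. Its mutant grafts (89.1 to 124 CPM, as given above) were all higher than the WT grafts (46.7 to 66.2), and the log2 difference, mutant over WT, was 0.80 ± 0.20 (edgeR adjusted p = 0.11). It passed when WT day 17 graft 3 was left out, with DESeq2 and without the filter on low counts (0.80 each). The smallest at day 17 was that of Junb in NK cells. Junb was at 2512, 2011, 2844 and 1896 in WT day 17 and at 1269.8, 1780.2, 1486 and 1342 in mutant day 17, so that every mutant graft lay below every WT graft, with a log2 difference of -0.65 ± 0.16 (adjusted p = 0.11), which passed with DESeq2 (-0.64) and without WT day 17 graft 2 (-0.74). At day 10 the values were 970.2, 1127, 903 and 1116 in WT and 1223, 1400.4, 1141 and 1358 in mutant NK cells, and every mutant graft lay above every WT graft. The change of the difference between days was -0.94 ± 0.22 (adjusted p = 0.0503), which lay just outside the threshold and passed with DESeq2 (-0.93), without TMM scaling (-0.99), without the filter (-0.91), with at least 20 cells per graft (-1.01), and without WT day 17 graft 2 or 4 or mutant day 17 graft 2. Junb in CD4 T cells was lower in all mutant than in all WT grafts at day 17 (-0.44 ± 0.12, adjusted p = 0.13), and passed without the filter (-0.44) and without mutant day 17 graft 2 (-0.56). In CD8 T cells the difference was -0.61 ± 0.16 (adjusted p = 0.12), and passed with DESeq2 (-0.62), without the filter (-0.58) and without WT day 17 graft 2 (-0.76). The WT day 17 library was also the one with the most UMIs per cell, and depth per cell and genotype cannot be told apart at that day.

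The members followed each other in part. Over 141 sums of a graft and cell type, which share libraries and grafts, the Pearson r of log2 levels had a median of 0.47 over the 45 pairs, was highest for Dusp1 and Zfp36 (0.86) and lowest for Zfp36 and Ier2 (-0.044). After the mean of each cell type and group was removed, the median was 0.22, with Fos and Dusp1 highest (0.56) and Jun and Junb lowest (-0.017). Much of the shared pattern therefore lay between types and groups. Among 5977 other and member genes with a mean of at least 20 CPM, those most like the mean standardized pattern of the members were Mpp7 (r = 0.79), Ier5 (0.78), Ppp1r15a (0.77), Btg2 (0.76), Pde4b (0.76), Spag9 (0.75), Adgre5 (0.72), Nup98 (0.71), Ccnl1 (0.71) and Ell2 (0.69). Of these 10, Ier5, Ppp1r15a and Btg2 stood in the list of related genes. These correlations are descriptions of these libraries over sums that are not independent.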

How the data were processed

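CD45+ cells of 4 grafts per genotype and day were sequenced as 4 pooled 10x libraries. The authors deposited whole-number UMI counts that had not been normalized, 1 value for every gene and cell, along with the hashtag, cluster and cell type of every cell. Per the labels, reads were processed with Cell Ranger on mm10, whose version, like the filters on cells, is not given in the sources used here. Counts were summed per graft and annotated cell type where a graft had at least 10 cells, and types with at least 3 such grafts per group were fitted. edgeR 4.0.16 (TMM, filterByExpr, glmQLFit, glmQLFTest; R 4.3.3) gave log2 fold changes and Benjamini-Hochberg adjusted p-values over all genes, with the group of genotype and day as the only factor and a threshold of 0.05. The scripts were tested on simulated data. Differences between types used limma 3.58.1, and tables and plots pandas 2.3.3, NumPy 2.4.6 and matplotlib 3.10.9 in Python 3.11.15. No doublet caller was run, and an alternative left out the 5% of cells with most UMIs per library. Other alternatives were DESeq2 1.42.0, no TMM, no filter on low counts, the hashtag number as a block, 20 cells per graft and each graft left out. Granulocytes, ILC-1, Stem-Progenitor, B and mast cells were not fitted. The hashtag libraries were not analysed here.

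The members, gene lists and tests were chosen with earlier results of these data known. Named were the 10 members, the related and heat shock genes called with the smallest p (at most 5 per direction), the 10 genes most like the members' mean standardized log2(CPM + 1), where CPM is UMIs per 1000000, and the 3 clusters highest and lowest in that mean. Promoters came from RefSeq (GRCm38.p6) and gene positions from the GENCODE annotation of GRCm38.

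Sums held between 1742746 and 9729233 UMIs per graft over all cells and down to 12529 in granulocytes, or 41086 among fitted types (monocytes), so single UMIs weigh more in rare types. The labels number the hashtags alike in both genotypes and do not say whether grafts of the same number are paired. The r of their deviations ran from -0.20 to 0.38, and they were not treated as pairs.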

Additional observations from a re-analysis of the deposited data

Results flagged for a closer look

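In 11 of 200 groups of 4 grafts (10 members, 4 groups, CD4 and CD8 T cells, NK cells, macrophages and dendritic cells), 1 graft lay far from the other 3 by Dixon's criterion, where chance alone marks about 1 in 20. In CD4 T cells these were Fos in Rnls mutant day 17 graft 3 (242 CPM, next 143), Jun in WT day 10 graft 3 (46.7, next 64.5), Nr4a1 in Rnls mutant day 10 graft 1 (131, next 97.7) and Dusp1 in WT day 17 graft 2 (268, next 150.3). In CD8 T cells, WT day 17 graft 3 stood high for Jun (207, next 46.5) and Zfp36 (114, next 40.3), and WT day 17 graft 2 stood low for Nfkbia (305, next 1233). In NK cells, Jun stood high in WT day 17 graft 2 (601, next 263) and Egr1 in Rnls mutant day 17 graft 1 (373, next 159). In macrophages, Junb stood high in Rnls mutant day 10 graft 1 (1998, next 1575) and Egr1 in Rnls mutant day 17 graft 4 (665, next 202). Of the 11, 5 were in WT day 17, the library with the fewest cells. The day change differed from that of macrophages in limma's test for 9 members in CD4 T cells, 5 in CD8 T cells, 6 in NK cells, 7 in dendritic cells and 1 in monocytes, all toward a more positive change.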

How the results depend on the processing

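Over all populations, 52 tests of members were called between days, and 48 to 54 with 1 graft left out. With 1 graft left out, CD4 T cells had 10 higher in every fit, Treg 4 and dendritic cells 8, while the number ranged from 7 to 9 in CD8 T cells, 6 to 8 in NK cells, 6 to 7 in all CD45+ cells, 3 to 5 in monocytes (0 to 1 lower) and 1 to 3 in macrophages (1 to 5 lower), and from 0 to 1 lower in dendritic cells. Without TMM scaling, macrophages had 3 members higher and 1 lower and monocytes 0 lower. Scaling itself moved the median log2 change of all genes from 0.014 to 0.14 in CD4 T cells, from 0.01 to 0.13 in CD8 T cells, from 0.021 to 0.18 in macrophages, from -0.06 to 0.10 in monocytes and from -0.0084 to 0.11 in Treg. Without the cells of most UMIs, macrophages had 6 lower and dendritic cells 1 lower, and without the filter on low counts dendritic cells had 2 lower. Within cluster 8, CD4 T cells had 1 higher and 1 lower, and within cluster 5 macrophages had 3 higher and 0 lower. For these changes of count the cause was not tested. Except for the clusters, the shares of all genes called under these settings are not given here, so the counts have no background beside them.

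For genotype, 0 members were called in each comparison. At day 10 it was 1 with DESeq2, 4 without the filter and 1 with at least 20 cells per graft, and 0 to 2 with 1 graft left out. At day 17 it was 2 with DESeq2, 5 without the filter and 0 to 2 with 1 graft left out. Over both days it was 4 without the filter. For the change between days it was 1 with DESeq2, 2 without TMM scaling, 6 without the filter, 1 with at least 20 cells and 0 to 3 with 1 graft left out. With the hashtag number as a replicate block it was 1, and the block left the number of calls between days at 53. The labels do not say that grafts of the same hashtag number share a host. Their deviations moved together in some pairs and not in others, which cannot decide whether they do. The fit with at least 20 cells was not run for Treg. Shares of all genes called under these alternatives are not given here, so these counts of members have no background beside them.

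Some log2 changes between days turned sign. Ier2 in all CD45+ cells was at -0.0046 with DESeq2, -0.031 without the filter, -0.0039 with the replicate block, -0.079 without the cells of most UMIs, and from -0.074 to 0.086 with 1 graft left out, and Nfkbia there was at -0.080 without the cells of most UMIs. Jun in CD8 T cells was at -0.040 without the filter, -0.27 with at least 20 cells and from -0.27 to 0.21 with 1 graft left out. In Treg, Nfkbia was at -0.038 without the filter and from -0.18 to 0.21 with 1 graft left out, and Jun from -0.062 to 0.57. Egr1 in macrophages was at 0.088 without TMM scaling, 0.0021 without the cells of most UMIs and from -0.44 to 0.14 with 1 graft left out. Within cluster 8, Fos was at -1.47, Jun at -1.30, Egr1 at -0.40, Dusp1 at -0.13 and Zfp36 at -0.29. Within cluster 5, Fos was at 0.52, Junb at 0.29, Egr1 at 0.44, Nr4a1 at 0.069 and Nfkbia at 0.059. With a graft left out, 1723 of the gene results kept direction and side of the threshold, 29 gained a call, 43 lost one and 19 turned sign, and under the other settings these numbers were 644, 35, 11 and 20.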
